A study of Cricetulus griseus with 16 samples.

Results

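The IL-6 family and its signalling chain were described in CHO cells exposed to heat through 10 genes: the ligands Il6, Il11, Lif and Clcf1, the receptor chains Il6st, Lifr and Osmr, the transcription factor Stat3, and the feedback inhibitors Socs1 and Socs3. They were picked by name from the 20824 genes of the count table, and all 10 names were found. Of these, 9 had counts and passed the filter on low counts in each of the 6 comparisons made. Lifr had 0 counts in all 16 libraries.

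The cells were CHO (ATCC CCL-61), an established line from Chinese hamster ovary. The 4 groups stayed at 37 °C, were heated to 40 °C and sampled after 1 h or after 6 h, or were heated to 42.5 °C and sampled after 1 h. Each group had 4 libraries (replicates A to D), and the labels name no difference between groups other than temperature and time. Total RNA of cultures described as biological repeats was sequenced as paired-end libraries, so each value is an average over all cells of a culture, and a change in the share of expressing cells cannot be told apart from a change in RNA per cell. The labels name no recovery period after the heat. The 3 heated groups were compared with 37 °C and with each other. The labels give no time for the 37 °C group. In comparisons with the 6 h group, the duration of the heat therefore cannot be told apart from time in culture.

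IL-6 family cytokines share the signalling receptor chain gp130, encoded by Il6st. Several of the ligands, though not all, recruit gp130 together with a partner chain such as the LIF receptor (Lifr) or the oncostatin M receptor (Osmr). JAK kinases at the receptor then phosphorylate STAT3, which moves to the nucleus. There it induces genes of the acute phase, of survival and of its own restraint, with Socs3 as the best known brake. Stromal cells and fibroblasts are known producers of IL-6, IL-11 and LIF, and the messenger RNAs of these cytokines are as a rule short lived.

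Total counts were between 10504192 and 14668365 per library. Levels are given as CPM, counts scaled to the size of each library, with the TMM factors of edgeR that correct for differences in library composition. They compare a gene between libraries. Levels of different genes were not compared, since transcript lengths were not used here. Replicate D at 37 °C stood apart from its group: over 10565 genes its log2 CPM correlated with the other 3 controls at r = 0.974 to 0.976, while those 3 correlated with each other at 0.995 to 0.996. The study left out 1 control, and the comparisons with 37 °C below use replicates A to C, with the values for all 4 controls given where they differ. Positions of replicate D were not counted over all genes, so those of the members are not read as particular to them. Of the 9 detected members, replicate D was below all 3 other controls in 7, within their range in 1 (Il6) and above it in 1 (Clcf1). Its level was 0.517 of the mean of the other controls for Il11, 0.527 for Il6st, 0.658 for Stat3 and 0.687 for Lif. The mesenchymal markers Vim, Lgals1, S100a4 and Col1a1 summed to between 27329 and 40467 counts per library. Markers of immune cells, the usual source of several family members in tissue, summed to 0 to 2 counts over the 5 of 7 markers found, those of endothelium to 0 to 5 counts, and those of epithelium to 20 to 48 counts over the 2 of 4 found. Of 5 ovarian follicle markers, Fshr, Foxl2 and Cyp19a1 were at 0 in all libraries and the sum was 79 to 192 counts. Star, another of these 5, was called higher after 6 h at 40 °C (log2 difference 0.75, adjusted p = 0.00094 by edgeR) and at 42.5 °C (0.99, adjusted p = 0.000201), groups in which members changed as well, and its part in those changes was not tested.

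After 1 h at 42.5 °C, Il11, Il6 and Socs3 rose, to 4.83, 1.84 and 2.14 times their level at 37 °C. After 1 h at 40 °C only Il11 was called among the members, 2.20-fold higher, and after 6 h at 40 °C only Lif, at 0.625 of its level at 37 °C. A gene was called changed (a DEG) when its Benjamini-Hochberg adjusted p in edgeR's quasi-likelihood test, over all genes tested, was under 0.05 and its fold change was at least 1.5 in either direction. Both calls at 40 °C were lost with all 4 controls. Lif after 1 h and Il6st after 6 h at 40 °C also passed the adjusted p, at log2 differences of 0.42 and -0.42, but stayed under 1.5-fold.

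At 40 °C for 1 h, 1 member of 9 tested was called higher and 0 lower, against 0.276% called higher and 0.0572% called lower of the 10494 genes tested, and 2 members passed the adjusted p alone, as did 1.64% of genes. At 40 °C for 6 h, 0 members were called higher and 1 lower, against 1.45% and 1.66% of 10499 genes, with 2 members passing the adjusted p alone beside 29.4% of genes. At 42.5 °C, 3 members were called higher and 0 lower, against 2.83% and 4.68% of 10470 genes. By the adjusted p alone 4 members passed there, a share close to the 43.1% of all genes. Between the heated groups, called either way, there were 3 members for 42.5 °C against 40 °C for 1 h (5.27% of genes), 2 for 6 h against 1 h at 40 °C (1.28%) and 3 for 42.5 °C against 40 °C for 6 h (8.25%). The adjusted p alone was passed by 5, 3 and 6 members in these comparisons and by 36.1%, 18.5% and 47.0% of genes.

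**Figure D1:**
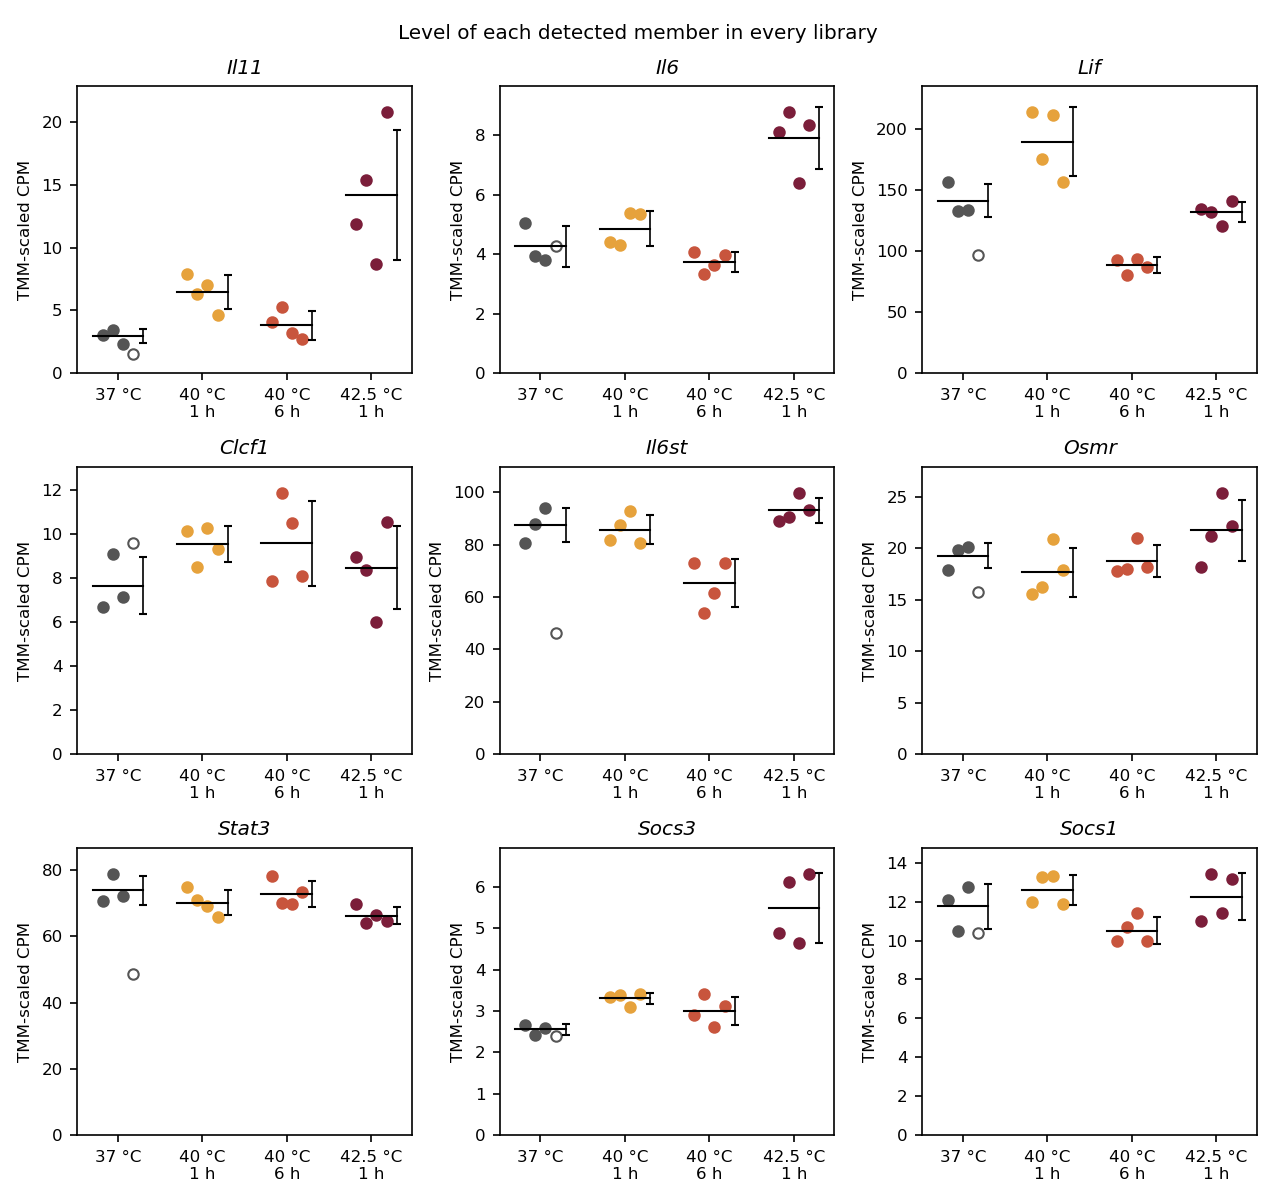
TMM-scaled CPM of the 9 detected members in each library, by group, with points for libraries, horizontal lines for the group mean and vertical bars for 1 SD either way. Replicate D at 37 °C is the open circle and is in neither the mean nor the SD. Il11, Il6 and Socs3 lie highest at 42.5 °C, where their lowest libraries read 8.72, 6.40 and 4.65 CPM, and Lif lies lowest after 6 h at 40 °C, between 80.0 and 93.6 CPM.

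Il11 (ENSCGRG00001001006) encodes interleukin 11, a gp130 cytokine of stromal cells. Its level was 3.02, 3.43 and 2.33 CPM in controls A, B and C, and 1.51 CPM in replicate D. After 1 h at 40 °C it was 7.88, 6.29, 7.02 and 4.65 CPM in replicates A to D, so each heated library was above each control. The log2 difference was 1.13 (SE 0.19, adjusted p = 0.0073 by edgeR, n = 3 controls and 4 heated). With all 4 controls the log2 difference was 1.31 with an adjusted p of 0.127, and Il11 was no longer called, although the groups still did not overlap. In 1 fit over all groups the adjusted p was 0.0662.

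After 6 h at 40 °C Il11 read 4.06, 5.30, 3.15 and 2.73 CPM, which overlapped the controls. The difference from 37 °C was not called, at 0.36 on the log2 scale (95% interval -0.11 to 0.83, adjusted p = 0.235). Between the durations at 40 °C, Il11 was lower after 6 h than after 1 h by a log2 difference of -0.77 (SE 0.19, adjusted p = 0.012 by edgeR), although the ranges overlapped. After 1 h at 42.5 °C the 4 libraries read 11.9, 15.4, 8.72 and 20.8 CPM, all above every library of the other 3 groups. The spread was wide, with a mean of 14.2 ± 5.18 CPM (SD, n = 4) against 2.93 ± 0.556 CPM in the 3 controls. The log2 difference from 37 °C was 2.27 (SE 0.26, adjusted p = 6.55e-06), and it was 2.45 with all 4 controls. Against 1 h at 40 °C the difference was 1.14 (SE 0.22, adjusted p = 0.00083), and against 6 h at 40 °C it was 1.91 (SE 0.24, adjusted p = 5.91e-06), both by edgeR. Il11 was thus the member with the largest difference from 37 °C in both 1 h groups.

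Il6 (ENSCGRG00001024135) encodes interleukin 6, which gives the family its name and drives fever and the acute phase response. Controls A to C had 5.05, 3.94 and 3.79 CPM, and replicate D had 4.27 CPM. The libraries at 40 °C for 1 h, with 4.42, 4.30, 5.38 and 5.35 CPM, overlapped them (log2 difference 0.18, 95% interval -0.15 to 0.50). So did those at 40 °C for 6 h, with 4.06, 3.33, 3.63 and 3.98 CPM (log2 difference -0.20, 95% interval -0.54 to 0.14). At 42.5 °C the level was 8.13, 8.78, 6.40 and 8.36 CPM, with each library above all others of the series. Il6 rose there by 0.88 in log2 units (SE 0.15, adjusted p = 0.000252 by edgeR), and by 0.89 with all 4 controls. When the test asked for a change beyond 1.5-fold (glmTreat), its adjusted p was 0.276. Il6 at 42.5 °C also exceeded both 40 °C groups, by 0.70 (SE 0.13, adjusted p = 0.000779) against 1 h and by 1.08 (SE 0.14, adjusted p = 8.63e-06) against 6 h. These levels rest on 42 to 106 counts per library.

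Lif (ENSCGRG00001018334) encodes leukaemia inhibitory factor, known for keeping mouse embryonic stem cells undifferentiated. It differed between 1 h and 6 h at 40 °C and did not follow the order of temperature. Controls A to C had 157, 133 and 134 CPM and replicate D 96.8 CPM. After 1 h at 40 °C the libraries read 214, 176, 212 and 156 CPM, of which the lowest overlapped the highest control. The log2 difference was 0.42 (95% interval 0.23 to 0.62, adjusted p = 0.0302), under the 1.5-fold limit, and its adjusted p was 0.346 with all 4 controls. After 6 h the level was 92.8, 80.0, 93.6 and 87.0 CPM, all below every control, replicate D included. Lif fell by 0.68 in log2 units (SE 0.07, adjusted p = 2.23e-06 by edgeR). With replicate D among the controls the difference was -0.56 with an adjusted p of 0.0254, which is under 1.5-fold, so that call was lost.

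Between 6 h and 1 h at 40 °C, a comparison in which no control library takes part, Lif differed by -1.10 in log2 units (SE 0.08, adjusted p = 1.04e-06), or to 0.467 of the 1 h level. By its p it was number 3 of the 10439 genes tested. At 42.5 °C Lif read 134, 132, 121 and 141 CPM, overlapping controls A to C (log2 difference -0.10, 95% interval -0.23 to 0.03). It lay below all libraries of 40 °C for 1 h (-0.53, SE 0.08, adjusted p = 0.000153) and above all of 40 °C for 6 h (0.57, SE 0.06, adjusted p = 6.58e-07). Both differences passed the test but stayed under 1.5-fold, the second at 1.49-fold. The first was called at -0.61 without replicate D of 40 °C for 1 h, and the second at 0.60, 0.60 and 0.61 without replicate A or C of 40 °C for 6 h or replicate C of 42.5 °C.

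Clcf1 (ENSCGRG00001005129) encodes cardiotrophin-like cytokine factor 1, a ligand of the CNTF receptor complex. It had 62 to 150 counts per library and was called in none of the 6 comparisons by edgeR; 1 of the 6 had an unadjusted p under 0.05, that of 40 °C for 1 h against 37 °C, with a log2 difference of 0.32 (95% interval 0.05 to 0.59, adjusted p = 0.25). Its means were 7.65 ± 1.30 CPM at 37 °C (SD, n = 3), 9.56 ± 0.813 CPM at 40 °C for 1 h, 9.58 ± 1.94 CPM at 40 °C for 6 h and 8.48 ± 1.89 CPM at 42.5 °C (n = 4 each), and all groups overlapped.

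Among the receptor chains, Lifr (ENSCGRG00001003293) was not detected. The limit of 3 counts that a count of 0 allows corresponds to 0.204 to 0.296 CPM per library and covers counting error only. No differences in Lifr were testable. In the RefSeq annotation of the Chinese hamster genome (assembly CriGri-PICRH-1.0) Lifr and Osmr are direct neighbours with no coding gene between them, and so are Lif and Osm.

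Il6st (ENSCGRG00001019513), the shared gp130 chain, had 80.7, 87.9 and 93.9 CPM in controls A to C and 46.1 CPM in replicate D. The libraries at 40 °C for 1 h, between 80.7 and 92.8 CPM, and those at 42.5 °C, between 88.9 and 99.6 CPM, overlapped controls A to C. After 6 h at 40 °C Il6st read 72.8, 53.9, 61.5 and 73.0 CPM, below each of these 3 controls but above replicate D. The log2 difference was -0.42 (95% interval -0.60 to -0.25, adjusted p = 0.00131), which passed the test but not the 1.5-fold limit, and with all 4 controls it was -0.25 with an adjusted p of 0.456. Against the other heated groups the same libraries were lower without overlap: by -0.39 on the log2 scale relative to 1 h at 40 °C (SE 0.08, adjusted p = 0.0034), while 42.5 °C was higher than 6 h at 40 °C by 0.51 (SE 0.08, adjusted p = 5.72e-05). Neither reached 1.5-fold.

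Osmr (ENSCGRG00001017859), the signalling partner chain for oncostatin M, was called in no comparison. Its lowest and highest libraries were 15.6 and 25.4 CPM, and the 1 comparison with an unadjusted p under 0.05 was that of 42.5 °C with 1 h at 40 °C, with 0.30 on the log2 scale (95% interval 0.07 to 0.53, adjusted p = 0.0438 by edgeR). The differences from 37 °C were -0.13 and -0.04 after 1 h and 6 h at 40 °C and 0.17 at 42.5 °C, with 95% intervals that all lay between -0.34 and 0.38.

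Stat3 (ENSCGRG00001013136) transmits the signal of all gp130 receptors to the nucleus. Its level varied little, with means of 73.8 ± 4.33 CPM at 37 °C (SD, n = 3), 70.2 ± 3.76 CPM at 40 °C for 1 h, 72.8 ± 3.89 CPM at 40 °C for 6 h and 66.3 ± 2.64 CPM at 42.5 °C (n = 4 each). The 4 libraries at 42.5 °C, from 63.9 to 69.9 CPM, were below controls A to C, which began at 70.7 CPM. That log2 difference was -0.16 (95% interval -0.28 to -0.05, adjusted p = 0.0241), under 1.5-fold, and it was -0.03 with an adjusted p of 0.914 when replicate D (48.6 CPM) was added. These are transcript levels, and phosphorylation of the STAT3 protein was not measured in these libraries.

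Socs3 (ENSCGRG00001002299) encodes the suppressor of cytokine signalling that binds gp130 and is itself a target of STAT3. Controls A to C had 2.67, 2.41 and 2.59 CPM and replicate D 2.40 CPM. After 1 h at 40 °C it read 3.33, 3.38, 3.10 and 3.41 CPM, above all controls, but the difference was not called (log2 difference 0.37, 95% interval 0.04 to 0.71, adjusted p = 0.295). After 6 h at 40 °C it read 2.91, 3.40, 2.60 and 3.12 CPM, overlapping the controls. At 42.5 °C Socs3 reached 4.88, 6.12, 4.65 and 6.31 CPM and was above every other library of the series. It rose there by 1.10 in log2 units (SE 0.17, adjusted p = 9.79e-05 by edgeR), and by 1.13 with all 4 controls. It exceeded 40 °C for 1 h by 0.73 (SE 0.14, adjusted p = 0.00117) and 40 °C for 6 h by 0.86 (SE 0.16, adjusted p = 0.000284). The counts behind these levels were low, 27 to 80 per library.

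Socs1 (ENSCGRG00001007612), a related inhibitor that acts directly on JAK kinases, did not pass the test in any comparison. Its means were 11.8 ± 1.16 CPM at 37 °C (SD, n = 3), 12.6 ± 0.794 CPM at 40 °C for 1 h, 10.5 ± 0.697 CPM at 40 °C for 6 h and 12.3 ± 1.21 CPM at 42.5 °C (n = 4 each). At 42.5 °C its difference from 37 °C was 0.06 on the log2 scale (95% interval -0.17 to 0.29, adjusted p = 0.704). Of the 6 comparisons, only that of 6 h against 1 h at 40 °C had an unadjusted p under 0.05, with a log2 difference of -0.26 (95% interval -0.45 to -0.06, adjusted p = 0.0632 by edgeR).

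**Figure D2:**
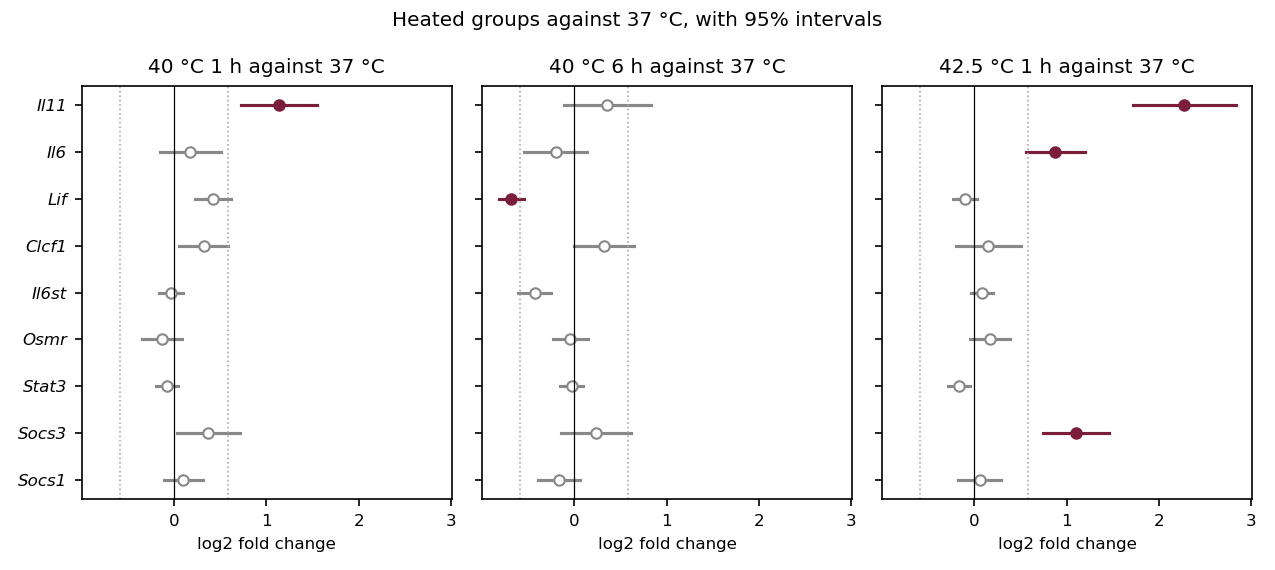
Log2 fold change of the 9 detected members in each heated group against 37 °C (replicates A to C), with 95% intervals; filled symbols are called, open symbols are not, and dotted lines mark 1.5-fold. Il11 is called in both 1 h groups (1.13 and 2.27), Lif only after 6 h at 40 °C (-0.68), and Il6 and Socs3 only at 42.5 °C (0.88 and 1.10).

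**Figure D3:**
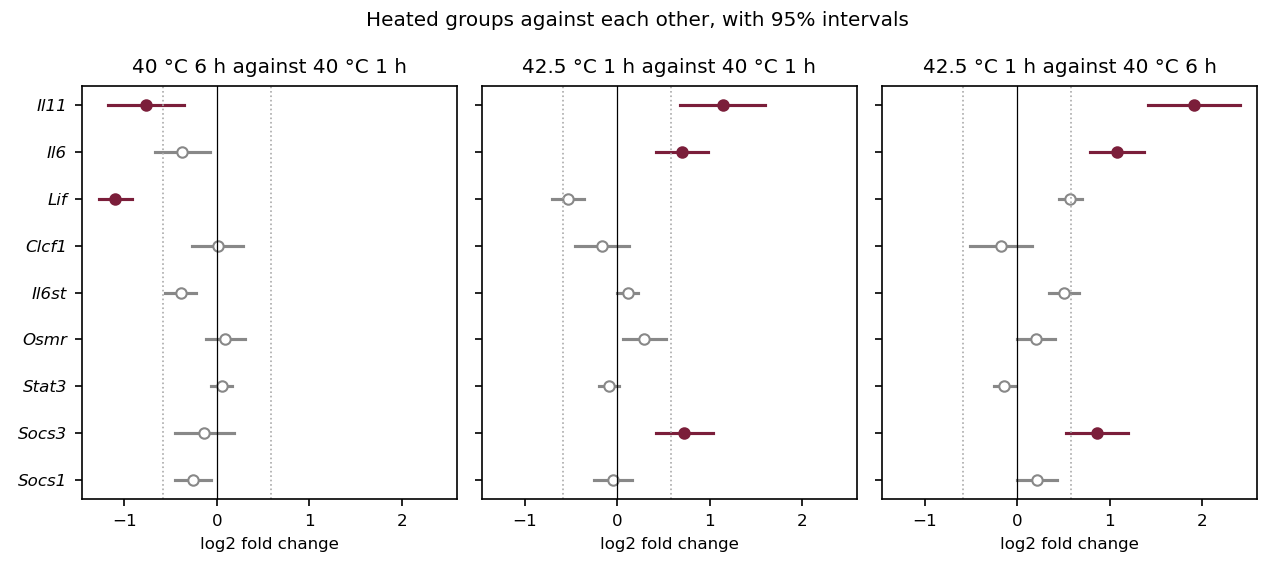
Log2 fold change between heated groups, with 95% intervals, symbols and dotted lines as for the comparison with 37 °C. Il6, Il11 and Socs3 are higher at 42.5 °C than in both 40 °C groups, and Il11 (-0.77) and Lif (-1.10) are lower after 6 h than after 1 h at 40 °C.

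The order of the group means differed between the members that moved. For Il11 it was, from lowest to highest, 37 °C, 6 h at 40 °C, 1 h at 40 °C and 42.5 °C, where only 37 °C and 6 h at 40 °C did not differ as neighbours by the test. For Il6 it was 6 h at 40 °C, 37 °C, 1 h at 40 °C and 42.5 °C, and only the step to 42.5 °C was called. Socs3 followed the order of Il11, with 42.5 °C as the only group that was called different from its neighbour. For Lif it was 6 h at 40 °C, 42.5 °C, 37 °C and 1 h at 40 °C, where 42.5 °C and 37 °C did not pass the test as neighbours and the other steps passed it but stayed under 1.5-fold. Over the 15 libraries in the comparisons, log2 CPM of Il11 and Socs3 correlated at r = 0.92, that of Il6 and Socs3 at 0.87 and that of Il6 and Il11 at 0.84, whereas Lif correlated with Socs3 at 0.08. Stat3 and Socs3 correlated at -0.72. These values describe 15 libraries that share 4 conditions, so group differences enter them, and how much they add was not measured.

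Other ligands and receptors of the family were at or near the limit of detection. Of 12 names, 11 were found (Il11ra1 was not matched by name), and in the comparisons with 37 °C 1 of them was tested in each 40 °C group and 2 at 42.5 °C. Osm, Ctf1, Il27, Il31, Cntfr and Il27ra had 0 to 2 counts per library, and Ebi3 and Il31ra had up to 7. Cntf (ENSCGRG00001018887), ciliary neurotrophic factor, had 4, 5 and 5 counts in controls A to C and 4 in replicate D, 5 to 9 after 1 h and 6 to 11 after 6 h at 40 °C, and 15, 14, 19 and 23 at 42.5 °C. It rose at 42.5 °C by 2.14 in log2 units (SE 0.32, adjusted p = 8.62e-05 by edgeR), from counts that are few in all groups. In the 40 °C groups it did not pass the filter on low counts, which it passed only in comparisons with 42.5 °C, the group where it is high. It directly neighbours Zfp91 in the RefSeq annotation, and strandedness of the counting is not given in the sources used here. Il6ra, the ligand-binding chain for IL-6, had 4 to 17 counts per library and a log2 difference of -0.58 at 42.5 °C (95% interval -1.27 to 0.12, adjusted p = 0.17).

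Of the 24 names of JAK kinases, other STATs, phosphatases, PIAS and further SOCS genes, 23 were found and 21 tested. None was called in either group at 40 °C by edgeR or by the Wald test of DESeq2. Of all genes, edgeR called 0.276% higher and 0.0572% lower after 1 h there, and 1.45% and 1.66% after 6 h. A count of 0 among 21 is near these shares and is not read as particular to the list. After 1 h and 6 h there, 6 and 4 had an unadjusted p under 0.05. The adjusted p alone was passed by 0 and 3, beside 1.64% and 29.4% of all genes. At 42.5 °C 1 was called higher, 1 lower and 19 neither, with a median log2 difference of 0.01 beside 0.00 over all genes tested. Of all genes, 2.83% were called higher and 4.68% lower there. By the adjusted p alone 14 of the 21 passed at 42.5 °C, beside 43.1% of all genes. Socs5, a SOCS gene linked to EGF receptor and IL-4 signalling, rose by 0.66 (SE 0.13, adjusted p = 0.000811), and was under 1.5-fold at 0.58 and 0.57 without replicate B or D of 42.5 °C and at 0.57 with a replicate block. Pias4, a SUMO ligase that restrains STAT activity, fell by 0.76 in log2 units (SE 0.08, adjusted p = 2.54e-06), from 32.0 ± 2.50 CPM (SD, n = 3) to 18.9 ± 1.29 CPM (n = 4). The kinase genes Jak1, Jak2, Jak3 and Tyk2 were called in none of the 3 comparisons with 37 °C, but at 42.5 °C all 4 passed the adjusted p, with log2 differences of 0.13, 0.27, -0.57 and -0.54. Tyk2 was called lower at 42.5 °C than after 6 h at 40 °C.

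Of the STAT3 target genes, 22 were listed and 21 found. After 1 h at 40 °C, 1 of 16 tested was called higher and 0 lower, beside 0.276% and 0.0572% of all genes, with a median of 0.01. By the adjusted p alone 2 passed, beside 1.64% of genes, with Klf4 at -0.54 (adjusted p = 0.000182 by edgeR) under 1.5-fold. The gene called was Cebpb, a transcription factor of the acute phase, at 0.74 (SE 0.17, adjusted p = 0.0393). That call did not hold without control A, B or C (adjusted p = 0.0994, 0.205 and 0.0938 at log2 differences of 0.79, 0.67 and 0.78), without replicate C or D of 40 °C for 1 h (0.73 and 0.58, adjusted p = 0.109 and 0.0645) or with all 4 controls (0.47, adjusted p = 0.807), and it was under the fold limit at 0.58 with a replicate block. After 6 h at 40 °C, 0 of 15 were called higher and 2 lower, beside 1.45% and 1.66% of all genes. The median was -0.24 beside 0.00 over all genes. By the adjusted p alone 10 passed, beside 29.4% of genes. Ccl2, a monocyte chemokine, fell by 1.47 in log2 units (SE 0.16, adjusted p = 5.52e-06), from 273 ± 21.2 CPM (SD, n = 3) to 98.7 ± 30.7 CPM (n = 4). Icam1, a leukocyte adhesion molecule, fell by 0.69 (SE 0.08, adjusted p = 1.41e-05). Cebpb was not called there (0.78, 95% interval 0.15 to 1.42, adjusted p = 0.0601), but it was called higher without replicate A, B or D of that group (0.93, 0.88 and 0.95), with no filter on low counts (0.78, adjusted p = 0.000959) and with a replicate block (0.86, adjusted p = 0.0127). Junb, at -0.55, was called lower without replicate A (-0.61). At 42.5 °C, 4 of 16 were called higher and 0 lower, beside 2.83% and 4.68% of all genes, with a median of -0.02. By the adjusted p alone 11 passed, beside 43.1% of genes. Among these 11 were differences below 0 that stayed under 1.5-fold, with Ccnd1 at -0.46, Klf4 at -0.40, Myc at -0.39, Irf1 at -0.33 and Icam1 at -0.30. The genes that rose were Fos by 4.95 (SE 0.21), Junb by 1.49 (SE 0.05), Cebpb by 1.40 (SE 0.18) and the survival gene Mcl1 by 0.96 (SE 0.09), with adjusted p of 1.91e-10, 3.49e-11, 2.28e-05 and 5.37e-07. Fos had 5 to 11 counts per library at 37 °C and 162 to 265 at 42.5 °C, so that in this comparison it passed the filter on low counts through the group where it is high. It was also tested after 1 h at 40 °C and not called, at 1.16 (95% interval 0.46 to 1.85, adjusted p = 0.0944 by edgeR). After 6 h at 40 °C it was not tested against 37 °C. Fos and Junb, subunits of AP-1, and Mcl1 are also known to respond to many other stimuli. The STAT3 targets of the liver acute phase, Fgg, Hp and Lbp, had at most 6 counts in a library, and Socs3 itself is described above.

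Of 15 genes that control the transcription or the decay of cytokine messenger RNAs, all tested, 6 were called higher and 0 lower at 42.5 °C. Their median was 0.17. Of all genes, 2.83% were called higher and 4.68% lower there. By the adjusted p alone 8 of the 15 passed, beside 43.1% of all genes. Nfkbiz, a nuclear cofactor of NF-κB needed for Il6 transcription in several cell types, rose by 1.83 (SE 0.23, adjusted p = 1.56e-05), from 5.51 ± 0.752 CPM (SD, n = 3) to 19.6 ± 6.95 CPM (n = 4). The stress-induced factor Atf3 rose by 1.47 (SE 0.21, adjusted p = 5.41e-05) and Jun by 1.16 (SE 0.07, adjusted p = 1.29e-08), beside Cebpb, which is in both lists. Of the genes for proteins that destabilise cytokine messenger RNAs, Zc3h12a (Regnase-1) rose by 0.89 (SE 0.13, adjusted p = 8.51e-05) and Zfp36l1 by 0.71 (SE 0.13, adjusted p = 0.000566), while Zfp36 at -0.11, Zfp36l2 at 0.11, Khsrp at -0.09 and Hnrnpd at 0.06 did not pass the test. Zfp36l1 was under 1.5-fold without replicate D of 42.5 °C and with a replicate block, at 0.54 in both, and is named here beyond the rule of 5 genes per list because it completes the 6. After 1 h at 40 °C, 2 were called higher and 0 lower, beside 0.276% and 0.0572% of all genes, with a median of 0.00. These were Cebpb and Jun, the latter by 1.04 (SE 0.16, adjusted p = 0.00414, or 0.114 with all 4 controls). After 6 h at 40 °C, 0 were called higher and 1 lower, beside 1.45% and 1.66% of all genes, with a median of -0.17. By the adjusted p alone 10 of 15 passed, beside 29.4% of genes. The gene called was Atf3, which fell by 0.62 in log2 units (SE 0.19, adjusted p = 0.0204). The Atf3 call was lost with all 4 controls (adjusted p = 0.105) and without control B or replicate C or D of 40 °C for 6 h, at log2 differences of -0.52, -0.54 and -0.55, and it was under 1.5-fold with a replicate block (-0.56).

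**Figure D4:**
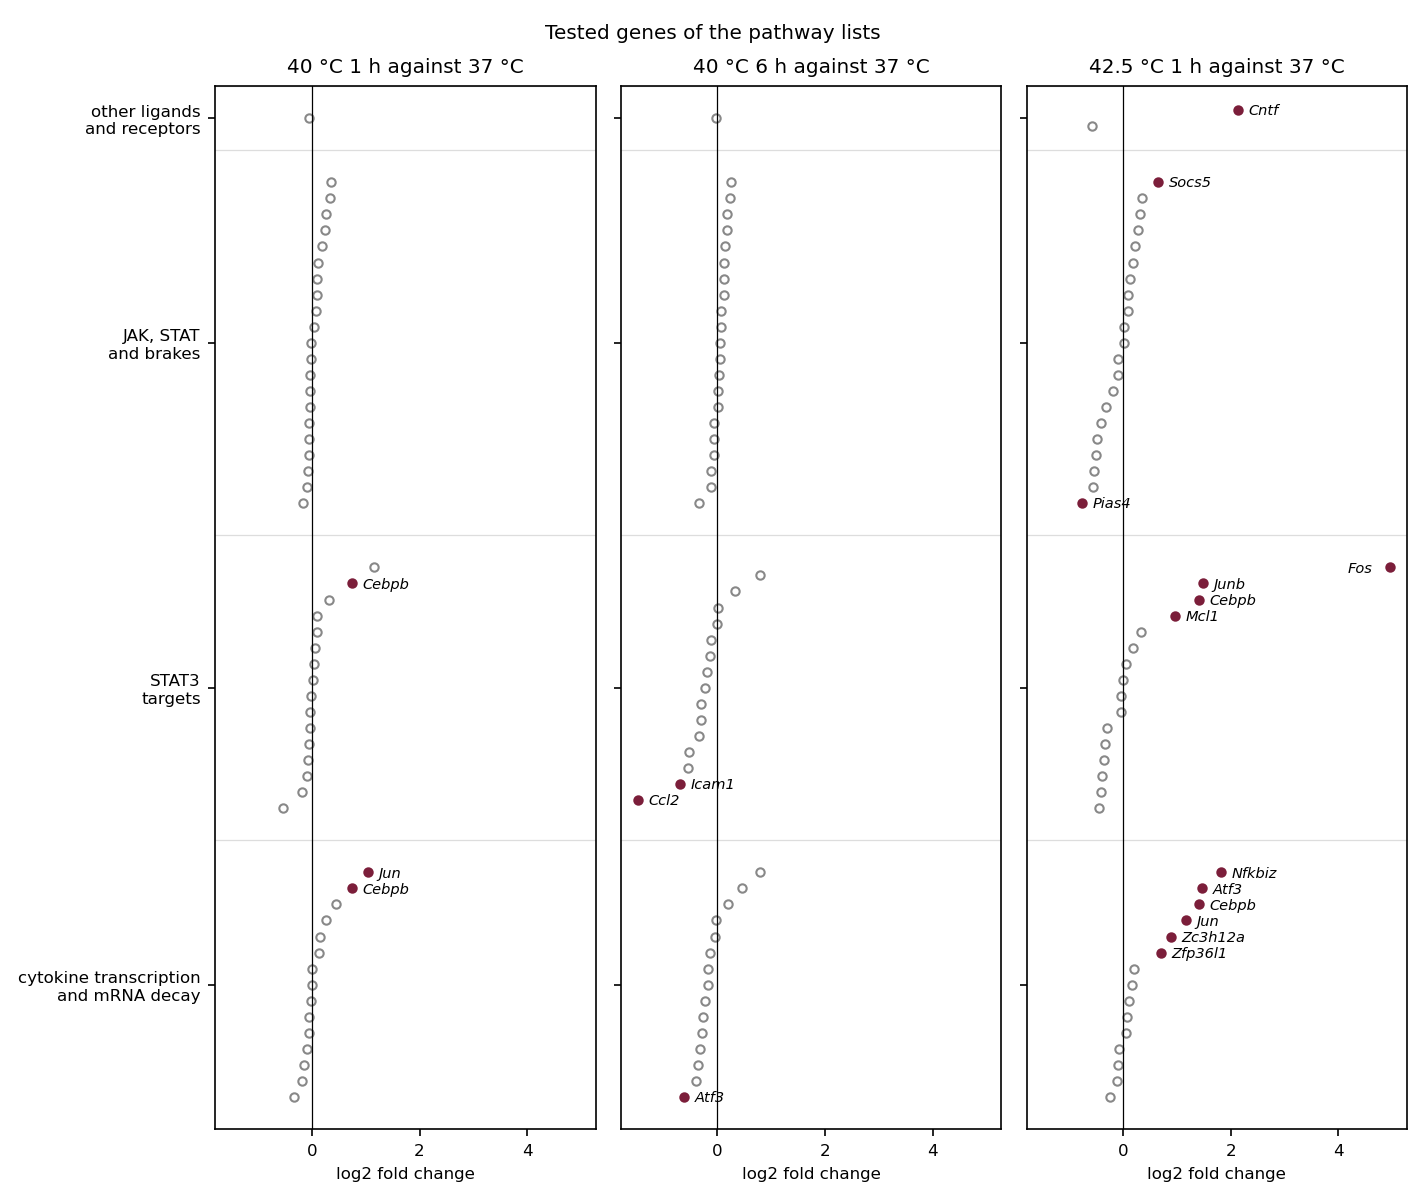
Log2 fold change against 37 °C for each tested gene of the 4 pathway lists, with lists as rows and heated groups as panels; filled, labelled symbols are called and open symbols are not. No gene of the JAK and STAT list is called in the 40 °C panels, and the called genes of the other lists are most numerous at 42.5 °C, where Fos reaches 4.95.

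The genes whose log2 CPM was most like that of a ligand over the 15 libraries, among 10565 genes, differed by ligand. Closest to Il6 were Hbegf (Pearson r = 0.959) and Areg (0.951), both ligands of the EGF receptor, and ENSCGRG00001016217 (0.948), which the table lists by identifier only. Closest to Il11 were the potassium channel gene Kcnk5 (0.956), the heat shock cochaperone gene Dnajb1 (0.955) and Id1 (0.947), an inhibitor of basic helix-loop-helix factors. Closest to Lif were Dusp5 (0.948), a phosphatase of nuclear ERK, Nab2 (0.947), a corepressor of EGR factors, and Cpeb1 (0.898), which regulates polyadenylation in the cytoplasm. These r values describe libraries of 4 conditions and were the highest of many, so no test is attached to them.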

How the data were processed

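The authors deposited read counts per gene and library, whole numbers without normalization, which per the study's methods were made by trimming the reads and mapping them to the CHOK1GS_HDv1 genome in CLC Genomics Workbench. Its version, the annotation release, the strandedness and the handling of reads with several mapping places are not given in the sources used here. The excluded control was identified as 37 °C replicate D: over the 920 genes of the study's supplementary count list, counts of replicates A, B and C were identical to the deposited ones in 920 genes each and those of D in 31.

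Pairs of groups were fitted separately with edgeR 4.0.16 (R 4.3.3, TMM, filterByExpr defaults, glmQLFit, two-sided glmQLFTest), with Benjamini-Hochberg adjustment over all tested genes. CPM used TMM factors over all 16 libraries, and correlations used log2 CPM with a prior count of 2. The scripts were tested on simulated data. p-values measure the spread between cultures that the study's methods call biological repeats. Members and lists were chosen with earlier results of these data known. The result for 1 of the genes in these lists is left out and not reported here. Genes named by rule were all members, up to 5 called list genes per comparison with 37 °C by size of change, and the 3 genes most correlated with Il6, Il11 and Lif. Further list genes, among them genes that were not called, and the marker Star were named beyond this rule. Alternatives were DESeq2 1.42.0 (test or size factors), other filters, 1 fit over all groups, a replicate block, other thresholds, all 4 controls and each library left out.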

Additional observations from a re-analysis of the deposited data

Results flagged for a closer look

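Osmr read 21.05 CPM in 1 library at 40 °C for 6 h (replicate C), while the other 3 lay between 17.83 and 18.16 CPM. Its gap relative to the range was 0.897, above Dixon's 95% critical value for 4 libraries. This was 1 of 36 groups of member values examined, and chance alone gives about 1 in 20.

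A member was called different between heated groups, by a direct test and with the 1.5-fold limit, in 8 cases. Other member differences, such as those of Lif between 42.5 °C and both 40 °C groups, passed the test but stayed under that limit. Of all genes tested, 5.27%, 8.25% and 1.28% were called in the comparisons below, in the order given. Relative to 40 °C for 1 h, the log2 difference at 42.5 °C was 0.70 for Il6, 1.14 for Il11 and 0.73 for Socs3. Relative to 40 °C for 6 h, it was 1.08 for Il6, 1.91 for Il11 and 0.86 for Socs3. After 6 h relative to 1 h at 40 °C it was -0.77 for Il11 and -1.10 for Lif.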

How the results depend on the processing

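All 13 called member differences kept their sign and their call with each library of the comparison left out in turn, with the DESeq2 Wald test, with DESeq2 size factors and with other filters on low counts. With the 1.5-fold limit kept, 2 of the 41 uncalled differences were called in some alternative, both of Lif as given above, and 14 of 810 alternative values had the other sign, none of a called difference. Members called at 40 °C for 1 h (1) came to 0 in 1 fit over all groups, with glmTreat and with all 4 controls, and to 2 by adjusted p alone. At 40 °C for 6 h (1) they came to 0 with glmTreat and with all 4 controls, and to 2 by adjusted p alone. For 42.5 °C against 37 °C (3) they came to 4 by adjusted p alone and to 2 with glmTreat, where Il6 was lost. For 42.5 °C against 40 °C for 1 h (3) they came to 5 by adjusted p alone and 0 with glmTreat. For 6 h against 1 h at 40 °C (2) they came to 3 by adjusted p alone and 1 with glmTreat. For 42.5 °C against 40 °C for 6 h (3) they came to 6 by adjusted p alone and to 2 with glmTreat, where Socs3 was lost (adjusted p = 0.352). Genes called at 40 °C for 1 h (35) came to 172 by adjusted p alone, 2 with glmTreat, 3 with all 4 controls and 23 to 56 with a library left out (23 without replicate C and 56 without replicate B of 40 °C for 1 h). By adjusted p alone and with glmTreat, genes called came to 3091 and 31 at 40 °C for 6 h (326), 4510 and 262 at 42.5 °C (786), 3767 and 171 for 42.5 °C against 40 °C for 1 h (550), 1931 and 8 for 6 h against 1 h at 40 °C (134), and 4904 and 260 for 42.5 °C against 40 °C for 6 h (860).

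Libraries with the same replicate letter deviated from their group means with a mean correlation of 0.05 (-0.045 to 0.181 over 21 pairs). For different letters it was -0.02 (-0.219 to 0.172 over 63 pairs), so the letters were not taken as pairs. A replicate block changed no member call (Il11 1.26 at 40 °C for 1 h and 2.03 at 42.5 °C, Lif -0.67 at 40 °C for 6 h). It changed calls of Cebpb, Atf3, Socs5 and Zfp36l1 as given above. The block also moved adjusted p of members by edgeR either way. For Lif at 40 °C for 1 h it went from 0.0302 to 2.61e-07, still under 1.5-fold. For Il6 at 42.5 °C against 40 °C for 1 h it went from 0.000779 to 0.0024. Among members, counts were under 100 in at least 1 library for Il6, Il11, Clcf1 and Socs3. Among genes of the pathway lists with a difference given above, this held for Cntf, Il6ra, Fos, Atf3, Nfkbiz, Cebpb, Zc3h12a and Zfp36. Levels of Lifr under the 3-count limit were not detectable.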
